A study of Mus musculus with 8 samples.

Results

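The genes described here are those of the TGF-beta ligands, of the proteins that hold these ligands latent in the matrix, and of a pair of targets of the pathway. They are the 3 ligand genes Tgfb1, Tgfb2 and Tgfb3, the 4 latent TGF-beta binding protein genes Ltbp1, Ltbp2, Ltbp3 and Ltbp4, and the targets Tgfbi and Smad7. They were taken by symbol, 9 of the 53465 gene identifiers in the table, and each symbol was matched to a single identifier. All 9 passed the filter on low counts. Their RNA was measured by RNA-seq in MSCs (mesenchymal stem cells, stromal cells of bone from which osteoblasts, adipocytes and chondrocytes can form) that had been kept at low oxygen or moved to the oxygen level of room air. Hypoxia-cultured cells were held at 2% O2 and normoxia-cultured cells at 21% O2, with 4 samples in each group. Per the methods of the study, all cells came from the bones of wild-type male C57BL/6N mice aged 3 to 5 months and grew out at 2% O2 until the CD45-/Ter119-/Sca-1+/CD140a+ population was sorted on day 12. This population was then divided between the oxygen levels for a further week, so the hypoxia samples are also the ones cultured only at 2% O2. The oxygen level during the sort itself is not stated. How many mice each sample pooled was not given in the sources used here.

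TGF-beta is made as a precursor whose propeptide stays wrapped around the mature ligand and keeps it latent, and in most cells a latent TGF-beta binding protein joins this complex and places it on fibrillin and fibronectin in the matrix. Ltbp1 and Ltbp3 bind the propeptides well, Ltbp4 binds mainly that of Tgfb1, and Ltbp2 is not known to bind them and serves in elastic fibres. Integrins, proteases and thrombospondin free the ligand, which signals through receptor kinases to Smad2 and Smad3, and in bone this stored ligand acts on the cells that form and resorb the tissue.

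Because Tgfb1 and Ltbp3 were lower and Tgfb2 was higher in normoxia, the sequences before the start sites of these genes are shown as context. A sequence of Ltbp1, whose difference between the oxygen levels did not pass the main test, is shown beside them. Each sequence is the 250 bases before the RefSeq start site on GRCm38.p6, written 5′ to 3′ on the strand of the gene. Capitals mark 2 short motifs on either strand, the core ACGTG of sites for hypoxia-inducible factors and the core CAGAC of sites for SMAD proteins.
Tgfb1 (chr7:25686752-25687001, plus strand): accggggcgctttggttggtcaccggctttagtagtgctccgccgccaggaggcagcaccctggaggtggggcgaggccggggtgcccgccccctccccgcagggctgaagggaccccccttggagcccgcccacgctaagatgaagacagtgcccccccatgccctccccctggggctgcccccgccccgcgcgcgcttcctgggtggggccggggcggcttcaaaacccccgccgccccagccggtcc
Tgfb2 (chr1:186705990-186706239, minus strand): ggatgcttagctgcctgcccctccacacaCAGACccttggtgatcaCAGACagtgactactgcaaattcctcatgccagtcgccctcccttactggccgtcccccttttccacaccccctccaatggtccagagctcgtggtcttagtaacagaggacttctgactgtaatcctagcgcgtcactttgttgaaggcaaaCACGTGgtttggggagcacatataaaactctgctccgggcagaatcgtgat
Ltbp1, more distal start site (chr17:75005279-75005528, plus strand): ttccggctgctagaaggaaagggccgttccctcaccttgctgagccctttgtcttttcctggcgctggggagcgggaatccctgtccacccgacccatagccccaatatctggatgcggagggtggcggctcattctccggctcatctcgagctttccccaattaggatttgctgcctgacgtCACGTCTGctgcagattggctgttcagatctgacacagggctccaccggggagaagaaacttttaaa
Ltbp3 (chr19:5740650-5740899, plus strand): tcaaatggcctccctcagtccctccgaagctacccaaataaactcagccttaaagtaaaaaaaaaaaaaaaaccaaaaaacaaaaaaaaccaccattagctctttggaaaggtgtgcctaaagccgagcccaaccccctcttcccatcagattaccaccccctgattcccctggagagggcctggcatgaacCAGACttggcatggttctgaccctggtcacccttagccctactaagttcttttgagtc
The Tgfb1 window holds neither core and is 75.2% GC, with 5 copies of the GC box GGGCGG counted on either strand. The Tgfb2 window holds the palindrome CACGTG, which contains ACGTG on both strands, 2 copies of CAGAC and a TATAAA that starts 31 bases before the start site. Of its bases, 167 lie in annotated exons of other genes, and none of those of the other 3 windows do. In the Ltbp1 window the cores overlap, as CACGT runs into GTCTG. The Ltbp3 window is 47.2% GC and has 1 CAGAC. Windows were found for 7 of the 9 genes, 10 windows in all, and Tgfb3 and Smad7 had no entry. ACGTG was present in 2 of these 10 windows and in 16.6% of all 32851 promoter windows. Both windows with ACGTG, of Tgfb2 and Ltbp1, are among those shown. The windows of Ltbp2, Ltbp4 and Tgfbi and the other window of Ltbp1 lack it and are not shown. CAGAC was in 6 of the 10 windows, of 5 genes, and in 42.2% of all windows. GGGCGG was in 6 of the 10, of 4 genes, and in 32.7% of all windows. TATAAA was in 1 of the 10 and in 12.4% of all windows. The AP-1 site TGANTCA was in none of the 10 and in 6.75% of all windows. These matches describe letters only, and no binding was measured here.

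Total counts were between 12898291 and 25132141 per sample, and the deepest was hypoxia replicate 1, with 25132141 against at most 13219647 in the other hypoxia samples. Its counts are thus more precise, and for each of the 9 genes except Ltbp2 it was also the hypoxia sample nearest to normoxia. Each of the 9 genes had at least 377 counts in every sample, so none was near the limit of detection. The 9 MSC markers checked were all detected, and their summed level was 2972 to 3848 CPM (counts scaled to a common library size with TMM factors) in hypoxia and 2903 to 3413 CPM in normoxia. Of these, Cd44 and Nt5e were called (an adjusted p-value under 0.05 in limma-trend) higher in normoxia and none lower. With same-numbered samples taken as pairs 8 of the 9 were called, 4 higher (Cd44, Nt5e, Pdgfra and Lepr) and 4 lower (Ly6a, Pdgfrb, Thy1 and Cxcl12). Over all tested genes 34.6% were called without the pairs and 46.0% with them. Ly6a and Pdgfra, which encode the sorting markers Sca-1 and CD140a, stood at 349 to 501 CPM and at 151 to 227 CPM over the 8 samples, with log2 changes, normoxia minus hypoxia, of -0.14 and 0.24 (limma-trend adjusted p = 0.260 and 0.0748, or 0.0205 and 0.000866 with the pairs). All 12 macrophage markers were also detected, with a summed level of 683 to 1487 CPM in hypoxia and 738 to 1443 CPM in normoxia, although the sort was for CD45- cells. Ptprc, which encodes CD45, had 8.28 to 19.0 CPM. Platelet and megakaryocyte markers summed to 23.4 to 40.0 CPM in hypoxia and 25.9 to 35.0 CPM in normoxia, with 5 of 7 tested. Endothelial markers summed to at most 5.00 CPM with 3 of 7 tested and no counts of Emcn or Cldn5, and erythroid markers to at most 0.231 CPM with none of 7 tested. In bulk RNA, fewer cells that express a gene and less of its RNA per cell cannot be told apart.

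Of the 9 genes, 6 differed between the oxygen levels at an adjusted p-value under 0.05 in limma-trend, the test used in the study, where 34.6% of the 14369 tested genes did. Tgfb1, Ltbp3 and Ltbp4 were lower in normoxia, and Tgfb2, Tgfb3 and Tgfbi were higher. For the separate directions the background was 18.0% of genes higher and 16.5% lower. Ltbp1, Ltbp2 and Smad7 did not pass. When same-numbered samples were treated as pairs, 8 of the 9 passed, 5 higher and 3 lower, where 46.0% of genes did (23.3% higher and 22.7% lower). All 4 pairs differed in the same direction for every member except Ltbp2, and this was so for 54.5% of tested genes (27.7% higher and 26.8% lower). No overlap between the groups was seen for Tgfb2, which was higher, and for Ltbp3 and Ltbp4, which were lower, against 32.6% of tested genes (17.1% higher and 15.5% lower). The changes were moderate in size, with levels in normoxia between 0.706 and 1.34 times those in hypoxia. The 3 lower genes passed under each of the 23 other settings tried, while the number of higher genes ranged from 0 to 5. Without hypoxia replicate 2, hypoxia replicate 4 or normoxia replicate 3 only the 3 lower genes passed, and without hypoxia replicate 1 there were 5 higher and 3 lower genes.

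**Figure D1:**
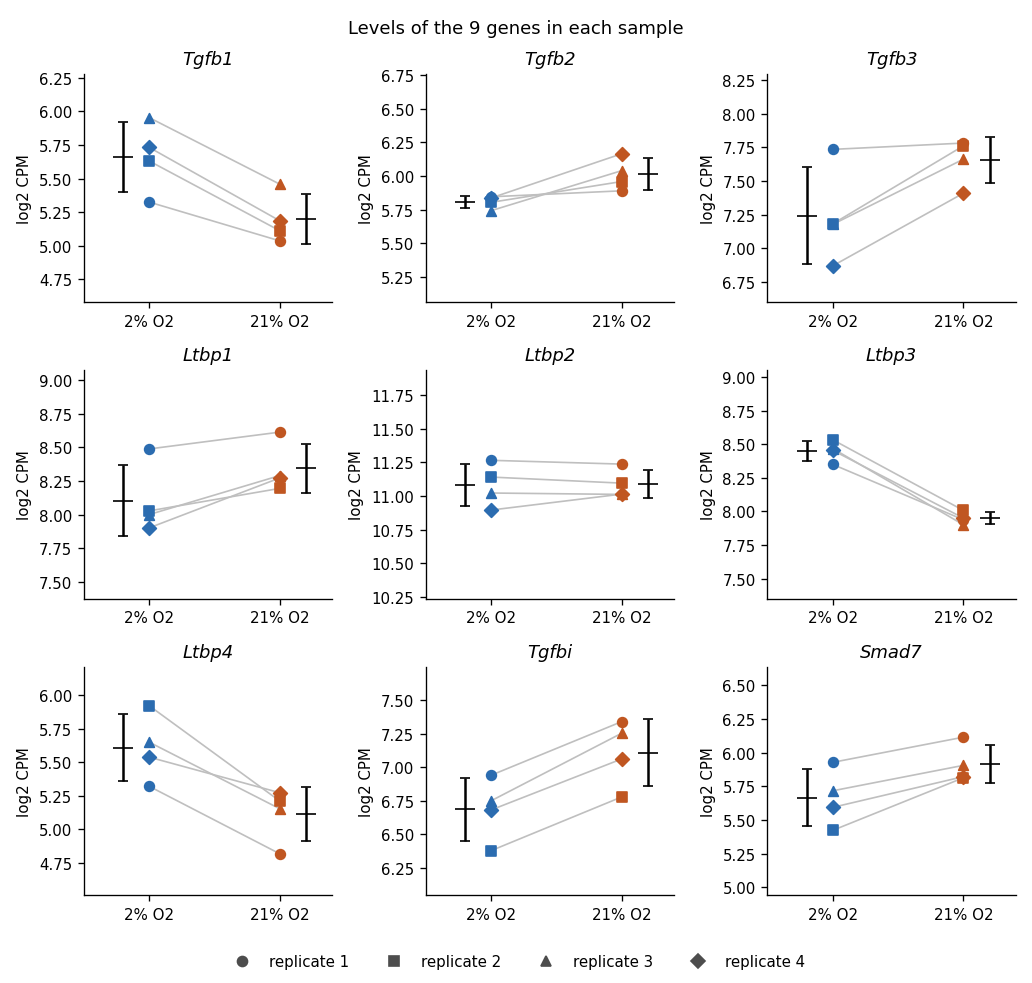
Level of each gene in each sample, in log2 CPM, at 2% O2 (blue) and 21% O2 (orange). Grey lines join same-numbered samples, black bars show the mean and SD of 4 samples, and every panel spans the same number of log2 units. Tgfb1, Ltbp3 and Ltbp4 fall in all 4 pairs, Tgfb2, Tgfb3, Ltbp1, Tgfbi and Smad7 rise in all 4, and Ltbp2 is level.

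Tgfb1 (ENSMUSG00000002603, chr7:25687002-25705077, plus strand) encodes the most studied ligand, the form that bone matrix holds in abundance. Its level was 39.9, 49.3, 61.8 and 52.9 CPM in hypoxia replicates 1 to 4 and 32.6, 34.4, 43.7 and 36.2 CPM in normoxia replicates 1 to 4. Hypoxia replicate 1 lay below normoxia replicate 3, so the groups overlapped, but the normoxia sample was the lower in every pair. The mean was 51.0 ± 9.05 CPM in hypoxia and 36.7 ± 4.90 CPM in normoxia (SD, n = 4 each). The log2 change, normoxia minus hypoxia, was -0.46 (SE 0.13, 95% interval -0.73 to -0.19, limma-trend adjusted p = 0.0133), or 0.726 times the hypoxia level. Within each group Tgfb1 was lowest in replicate 1 and highest in replicate 3. The summed macrophage markers had the same lowest and highest replicates, with 683, 991, 1487 and 1155 CPM in hypoxia and 738, 901, 1443 and 1056 CPM in normoxia. Lyz2 held the largest part of these sums, with 354 ± 73.3 CPM in hypoxia and 523 ± 125 CPM in normoxia (SD, n = 4 each). The median log2 change of the 12 markers was -0.36, against 0.0049 over all tested genes. Between the groups the sums overlapped, and 3 of the 12 markers were called, Lyz2 higher and C1qa and Mrc1 lower in normoxia. With the replicate block 8 were called, 1 higher and 7 lower. Over all tested genes 34.6% were called without the block and 46.0% with it. The part of such cells in the Tgfb1 difference was not tested.

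Tgfb2 (ENSMUSG00000039239, chr1:186622792-186705989, minus strand) encodes the ligand that needs the coreceptor betaglycan, the product of Tgfbr3, for strong binding. It had 57.3, 55.7, 53.3 and 56.9 CPM in hypoxia and 59.1, 62.0, 65.6 and 71.6 CPM in normoxia. Every normoxia sample was above every hypoxia sample. Its log2 change was 0.21 (SE 0.068, limma-trend adjusted p = 0.0344), or 1.15 times the hypoxia level, and pair differences ran from 0.045 to 0.33. This was the smallest change among the 6 genes called. Tgfb2 was also the member of lowest GC content, 46.9%, and after a correction for GC content and length its log2 change was 0.10 (limma-trend adjusted p = 0.256, and 0.134 when the block was added). Leaving out single samples, the adjusted p-value in limma-trend rose to 0.0548, 0.0924 and 0.0554 without hypoxia replicates 2, 3 and 4, and to 0.0597, 0.0956 and 0.128 without normoxia replicates 2, 3 and 4.

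Tgfb3 (ENSMUSG00000021253, chr12:86056745-86079041, minus strand) encodes the ligand known for its roles in palate and lung development. Its level was 213, 145, 145 and 117 CPM in hypoxia and 220, 217, 202 and 170 CPM in normoxia. Hypoxia replicate 1 lay within the range of normoxia, and the other 3 hypoxia samples lay below it. The log2 change was 0.41 (SE 0.15, 95% interval 0.092 to 0.73, limma-trend adjusted p = 0.0467), or 1.33 times the hypoxia level. Pair 1 differed by 0.047 and the other pairs by 0.49 to 0.58 on the log2 scale. The call was close to the threshold, with adjusted p-values of 0.0694 in the edgeR quasi-likelihood test and 0.0529 in limma-voom, and in limma-trend it was lost without any one of the samples except hypoxia replicate 1 and normoxia replicate 4 (0.0929, 0.109 and 0.138 without hypoxia replicates 2, 3 and 4, and 0.110, 0.117 and 0.0929 without normoxia replicates 1, 2 and 3). In limma-trend with same-numbered samples as a block it was called (adjusted p = 1.64e-05).

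Levels of different genes were compared per kb of annotated exons. Among the ligands Tgfb3 was the most abundant in every sample, at 45.7 ± 12.1 CPM per kb in hypoxia and 59.8 ± 6.78 CPM per kb in normoxia (SD, n = 4 each). Tgfb1 had 10.1 ± 1.80 and 7.28 ± 0.972 CPM per kb and Tgfb2 had 9.64 ± 0.311 and 11.2 ± 0.929 CPM per kb, so these neighbours in the order did not differ beyond their spread in hypoxia. In normoxia Tgfb2 was the higher of the pair, without overlap. Tgfb3 made up 69.1% of the summed ligand level in hypoxia and 76.3% in normoxia, Tgfb1 15.9% and 9.36%, and Tgfb2 15.0% and 14.4%. The order of Tgfb1 and Tgfb2 rests on the length used, since with the longest transcript in place of all exons Tgfb1 came to 19.8 and 14.3 CPM per kb and Tgfb2 to 10.9 and 12.6 CPM per kb, and the share of Tgfb1 to 26.4% and 16.5%.

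**Figure D2:**
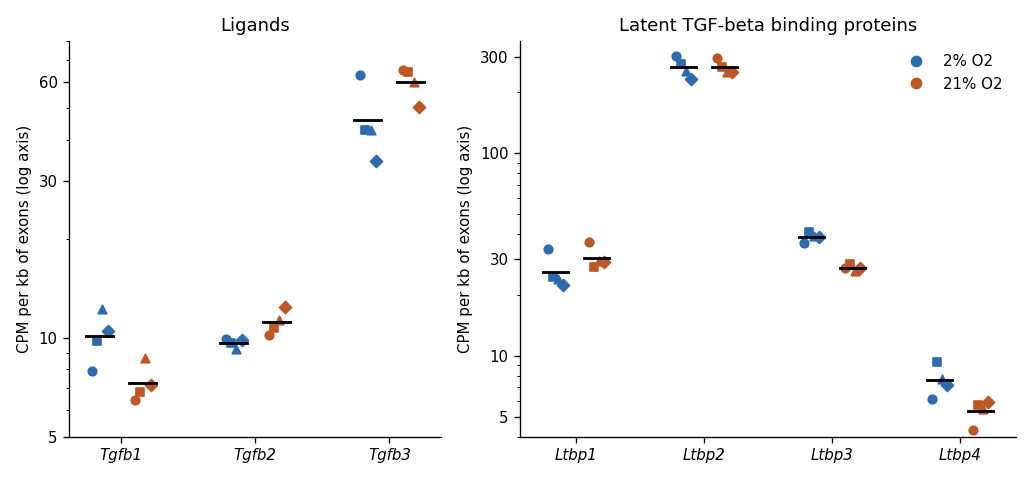
Level of each ligand gene and each latent TGF-beta binding protein gene per kb of exons, in CPM per kb on log axes, for every sample at 2% O2 (blue) and 21% O2 (orange). Marker shapes stand for replicates 1 to 4 from left to right and black lines for the mean of 4 samples. Tgfb3 is the most abundant ligand and Ltbp2 the most abundant binding protein in all 8 samples.

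Ratios taken within a sample do not depend on how the samples were scaled, but those given here were not corrected for GC content and length. Counts of Tgfb2 relative to those of Tgfb1 were 1.44, 1.13, 0.863 and 1.08 in hypoxia and 1.81, 1.81, 1.50 and 1.98 in normoxia. The groups did not overlap in this ratio. Tgfb3 relative to Tgfb1 was 5.34, 2.94, 2.34 and 2.204 in hypoxia and 6.74, 6.31, 4.63 and 4.69 in normoxia. Here hypoxia replicate 1 lay among the normoxia samples. These ratios were formed after the direction of each gene was known, so they are given as a description with no test.

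Ltbp1 (ENSMUSG00000001870, chr17:75005568-75392512, plus strand) encodes the founding member of the binding proteins, which carries all 3 ligands. Its level was 359, 261, 256 and 239 CPM in hypoxia and 391, 293, 313 and 309 CPM in normoxia. Both samples numbered 1 stood above the rest of their groups, and hypoxia replicate 1 lay within the normoxia range. The log2 change of 0.24 (SE 0.12, 95% interval -0.026 to 0.50) did not pass in limma-trend (adjusted p = 0.151). With the replicate block it passed (limma-trend adjusted p = 0.000474), all pairs being higher in normoxia by 0.13 to 0.37, and so it did without hypoxia replicate 1, where the log2 change was 0.37 (limma-trend adjusted p = 0.00605).

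Ltbp3 (ENSMUSG00000024940, chr19:5740904-5758532, plus strand) encodes the binding protein whose loss in mice gives bone and tooth defects. It had 326, 370, 354 and 351 CPM in hypoxia and 245, 257, 239 and 247 CPM in normoxia. The groups were far apart relative to their spread, with means of 350.2 ± 18.2 and 247 ± 7.61 CPM (SD, n = 4 each). Its log2 change of -0.50 (SE 0.056, 95% interval -0.62 to -0.38, limma-trend adjusted p = 0.000107) had the smallest standard error of the 9 genes, and the normoxia level was 0.706 times that of hypoxia.

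Ltbp4 (ENSMUSG00000040488, chr7:27305136-27337692, minus strand) encodes a binding protein that also takes part in elastic fibre assembly. Its level was 39.8, 60.3, 50.0 and 46.2 CPM in hypoxia and 28.0, 36.8, 35.4 and 38.4 CPM in normoxia. All hypoxia samples were above all normoxia samples. The log2 change was -0.49 (SE 0.13, 95% interval -0.77 to -0.22, limma-trend adjusted p = 0.00988), or 0.710 times the hypoxia level. Ltbp4 had the highest GC content of the 9 genes, 62.2%, and with the correction for GC content and length its log2 change was -0.29 (limma-trend adjusted p = 0.0470).

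Ltbp2 (ENSMUSG00000002020, chr12:84783212-84876532, minus strand) was the most abundant of the 9 genes per kb of exons. It had 2463, 2259, 2081 and 1905 CPM in hypoxia and 2415, 2189, 2066 and 2069 CPM in normoxia. The ranges of the groups overlapped almost fully, and 1 pair was higher and 3 were lower in normoxia. The log2 change was 0.0088 (SE 0.091, limma-trend adjusted p = 0.953). Its 95% interval of -0.19 to 0.21 leaves room for changes in either direction up to about the size of that of Tgfb2, the smallest called. Its GC content was 58.5%, and the tenth of genes with the highest GC content, to which Ltbp2, Ltbp3 and Ltbp4 belong, had a median log2 change of -0.23. With the correction for GC content and length the log2 change of Ltbp2 was 0.18 (limma-trend adjusted p = 0.197), which passed only when the replicate block was added to it (adjusted p = 0.00113). With the block alone the adjusted p-value in limma-trend was 0.911.

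**Figure D3:**
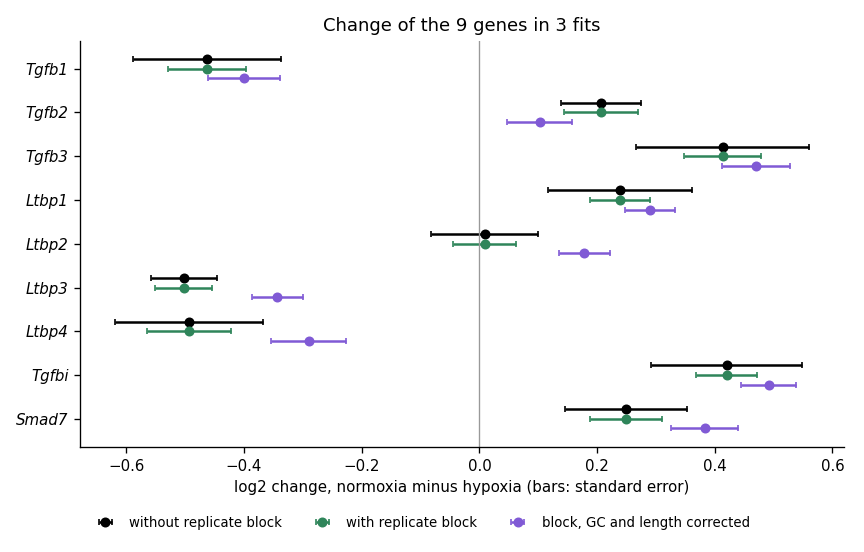
Log2 change of each gene, normoxia minus hypoxia, with its standard error, from limma-trend without the replicate block (black), with it (green) and with it after a correction for GC content and length (purple). Tgfb1, Ltbp3 and Ltbp4 lie below 0 and Tgfb2, Tgfb3, Ltbp1, Tgfbi and Smad7 above 0 in all 3 fits, while Ltbp2 lies near 0 in the uncorrected fits and at 0.18 in the corrected fit.

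Over the 14353 tested genes with a GC value, the log2 change fell with GC content (Spearman's rho -0.39 across genes, which are not independent replicates). The correction left the signs of all 9 genes as they were. It brought the log2 changes of Ltbp3 and Ltbp4 nearer to 0, to -0.34 and -0.29, and moved those of Tgfb3, Tgfbi and Smad7 away from it, to 0.47, 0.49 and 0.38. True changes that happen to follow GC content would be taken out by it too. With the correction 6 of the 9 genes passed, where 29.5% of genes did.

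Ltbp2 held the largest share of the summed level of the binding proteins per kb, 78.6% in hypoxia and 80.8% in normoxia. The share of Ltbp3 was 11.5% and 8.28%, that of Ltbp1 was 7.66% and 9.23%, and that of Ltbp4 was 2.26% and 1.64%. By their means, Ltbp1 and Ltbp3 changed places in this order between the oxygen levels. They stood at 26.1 ± 5.09 and 38.6 ± 2.01 CPM per kb in hypoxia and 30.5 ± 4.13 and 27.2 ± 0.839 CPM per kb in normoxia (SD, n = 4 each). In normoxia the 2 genes did not differ beyond their spread, and in replicate 2 Ltbp1 was the lower, at 27.4 against 28.3 CPM per kb. Counts of Ltbp1 relative to those of Ltbp3 within a sample were 1.10, 0.704, 0.723 and 0.681 in hypoxia and 1.60, 1.14, 1.31 and 1.25 in normoxia. The groups did not overlap, and the smallest difference between them was that from hypoxia replicate 1 to normoxia replicate 2. The summed level of Ltbp1, Ltbp3 and Ltbp4 per kb, divided by that of the 3 ligands, was 0.938, 1.20, 1.10 and 1.24 in hypoxia and 0.832, 0.753, 0.765 and 0.891 in normoxia. Every normoxia sample lay below every hypoxia sample in this ratio, which is likewise a description with no test. The size of this ratio rests on the length used, and it was formed with all exons only. With the longest transcript in place of all exons, the shares of Ltbp2, Ltbp3 and Ltbp1 were 74.1%, 14.2% and 9.58% in hypoxia. In normoxia these shares were 76.6%, 10.3% and 11.6%.

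**Figure D4:**
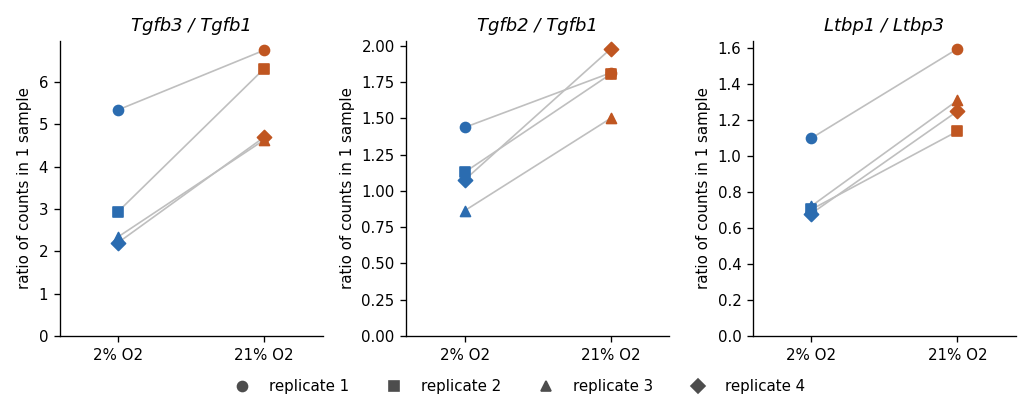
Ratios of counts within each sample at 2% O2 (blue) and 21% O2 (orange), for Tgfb3 to Tgfb1, Tgfb2 to Tgfb1 and Ltbp1 to Ltbp3, on axes that start at 0. Grey lines join same-numbered samples. All 3 ratios rise in all 4 pairs, and the ratios of Tgfb2 to Tgfb1 and of Ltbp1 to Ltbp3 do not overlap between the groups.

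Tgfbi (ENSMUSG00000035493, chr13:56609523-56639562, plus strand) encodes a secreted matrix protein named for its induction by TGF-beta. It had 123, 83.0, 107 and 102 CPM in hypoxia and 162, 110, 152 and 133 CPM in normoxia. Hypoxia replicate 1 was above normoxia replicate 2, so the groups overlapped, but the pairs differed by nearly the same amount, 0.38 to 0.50 on the log2 scale. The log2 change was 0.42 (SE 0.13, 95% interval 0.14 to 0.70, limma-trend adjusted p = 0.0241), or 1.34 times the hypoxia level. Without hypoxia replicates 2 and 4 the limma-trend adjusted p-value rose to 0.0621 and 0.0553, and without normoxia replicates 1 and 3 to 0.0726 and 0.0762.

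Smad7 (ENSMUSG00000025880, chr18:75367529-75395935, plus strand) encodes the inhibitory SMAD that TGF-beta induces and that shuts off its own receptor. Its level was 60.7, 42.7, 52.4 and 48.1 CPM in hypoxia and 69.1, 56.0, 59.8 and 56.4 CPM in normoxia. Only hypoxia replicate 1 reached the normoxia range. The log2 change of 0.25 (SE 0.10, 95% interval 0.023 to 0.47) did not pass in limma-trend (adjusted p = 0.0826). It passed with the replicate block (limma-trend adjusted p = 0.00179), after the correction for GC content and length (log2 change 0.38, adjusted p = 0.0230) and without hypoxia replicate 1 (log2 change 0.34, adjusted p = 0.0115).

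Over the 8 samples the levels of the 2 targets varied together, with Pearson's r of 0.92 between the log2 CPM of Tgfbi and that of Smad7. Ltbp4 ran against both, with r of -0.91 with Tgfbi and -0.94 with Smad7. Smad7 also followed Ltbp1 (r = 0.88) and Tgfb3 (r = 0.80), and Tgfb1 followed Ltbp3 and Ltbp4 (r = 0.78 with each). The 8 points include the difference between the oxygen levels and share the pairs described above, so these coefficients describe these samples only.

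To place the 9 genes in their pathway, 82 other genes of 7 lists that passed the filter were examined with the same test. Of these, 45 were called, 27 higher and 18 lower in normoxia, where 34.6% of all tested genes were (18.0% higher and 16.5% lower). The same background applies to the counts of each list below. The median log2 change of the 82 genes was 0.080 against 0.0049 over all tested genes. In this fit, without the replicate block, the calls were spread over both directions in every list with more than 5 tested genes except the activins.

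Among the receptors 2 of 5 were called, both lower in normoxia. The signalling receptors Tgfbr1 and Tgfbr2 had log2 changes of -0.12 and -0.014 (limma-trend adjusted p = 0.213 and 0.893) and the coreceptor Tgfbr3 had 0.14 (adjusted p = 0.316). Tgfbr3 passed with the replicate block (limma-trend adjusted p = 0.0298), all pairs being higher in normoxia, and Tgfbr1 passed with the correction for GC content and length (log2 change -0.34, limma-trend adjusted p = 0.00816). Acvrl1, an alternative type I receptor, fell from 29.3 ± 6.27 to 18.9 ± 2.35 CPM (SD, n = 4 each), a log2 change of -0.61 (SE 0.14, limma-trend adjusted p = 0.00651). Eng, its coreceptor endoglin, had a log2 change of -0.27 (SE 0.096, limma-trend adjusted p = 0.0428), which became -0.12 with the correction for GC content and length (adjusted p = 0.321). Its call was also lost without any one of the samples except hypoxia replicate 1 and normoxia replicate 4 (limma-trend adjusted p = 0.0678 to 0.121).

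Of the genes that activate or tether the latent ligands 8 of 13 were called, 5 higher and 3 lower. The integrin subunits went both ways, with Itgb1 at a log2 change of 0.44 (SE 0.075, limma-trend adjusted p = 0.00104) and Itgb3 at -0.70 (SE 0.15, limma-trend adjusted p = 0.00440). Itgb8, whose integrin activates latent TGF-beta directly, had a log2 change of 0.67 (SE 0.23, limma-trend adjusted p = 0.0380) on 16 to 56 counts per sample. Its call was lost with the correction for GC content and length (log2 change 0.46, limma-trend adjusted p = 0.139) and without hypoxia replicate 3 or 4 or normoxia replicate 1 or 3 (adjusted p = 0.0768, 0.107, 0.0824 and 0.122). Plau, the urokinase protease, rose by a log2 change of 0.55 (SE 0.10, limma-trend adjusted p = 0.00141). Thbs1, which encodes thrombospondin, had a mean of 26797 CPM in hypoxia and 28364 CPM in normoxia, and its log2 change was 0.089 (limma-trend adjusted p = 0.683).

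Matrix anchors showed the largest single change of the pathway lists. Of 8 tested, 2 were higher and 4 lower in normoxia. Fbn2, a fibrillin to which the binding proteins attach, had 119, 107, 125 and 119 CPM in hypoxia and 15.8, 27.0, 29.4 and 39.8 CPM in normoxia. The groups were widely separated, with a log2 change of -2.13 (SE 0.20, limma-trend adjusted p = 5.99e-05). Fbn1, the main fibrillin, fell by 0.66 on the log2 scale (SE 0.11, limma-trend adjusted p = 0.000726), Fn1, fibronectin, by 0.59 (SE 0.14, limma-trend adjusted p = 0.00781), and Bgn, a proteoglycan that binds TGF-beta, by 0.45 (SE 0.095, limma-trend adjusted p = 0.00343).

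**Figure D5:**
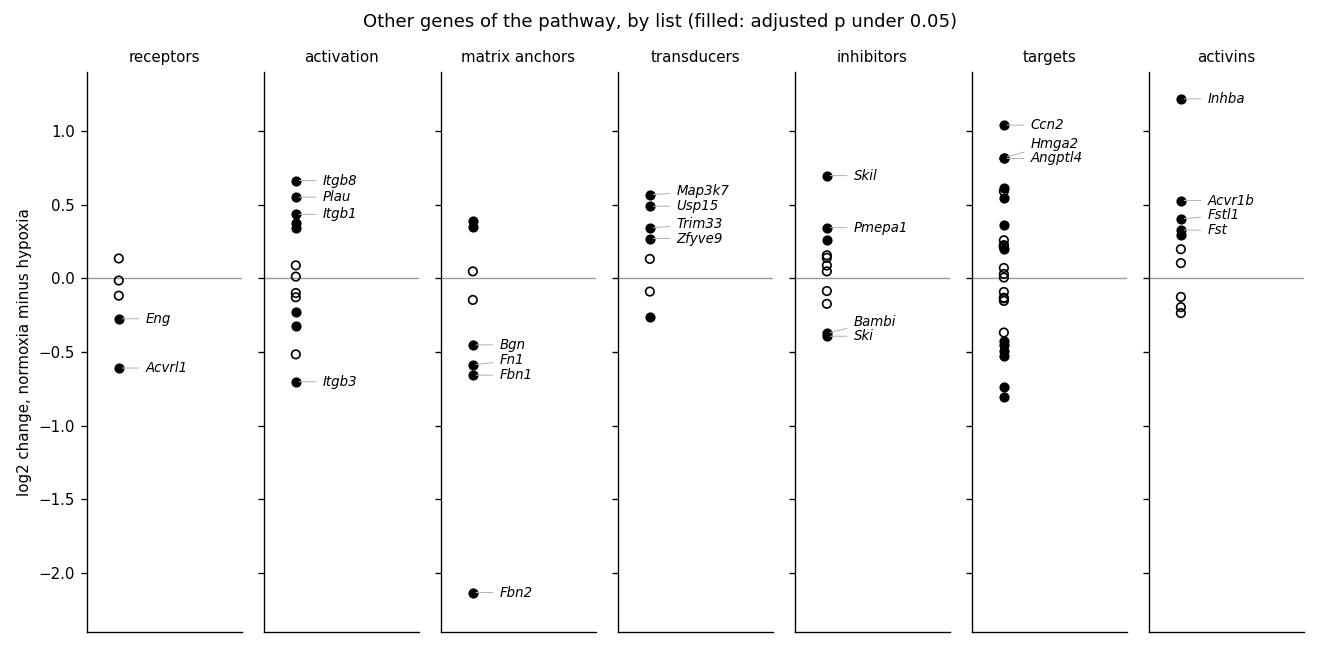
Log2 change, normoxia minus hypoxia, of 81 tested genes of 7 other pathway lists, with 1 panel for each list and 1 point for each gene. Filled points passed in limma-trend at an adjusted p-value under 0.05, and the genes of largest change in each list are named. Fbn2 lies lowest, at -2.13, and Inhba and Ccn2 lie above 1.

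Of the transducers 5 of 7 were called, 4 higher and 1 lower. The receptor-activated Smad2 and Smad3 were not among them, with log2 changes of 0.13 and -0.089 (limma-trend adjusted p = 0.117 and 0.248), and Smad4, their shared partner, was lower by a log2 change of -0.26 (limma-trend adjusted p = 0.00468). Map3k7, the kinase TAK1, rose by 0.57 (SE 0.075, limma-trend adjusted p = 0.000242) and Usp15, a deubiquitinase that acts on the pathway, by 0.49 (SE 0.068, adjusted p = 0.000317). Trim33 and Zfyve9 had log2 changes of 0.34 and 0.27 (limma-trend adjusted p = 0.0119 and 0.0449), and both calls were lost with the correction for GC content and length (adjusted p = 0.0654 and 0.165). That of Zfyve9 was lost as well without hypoxia replicate 3 or 4 or normoxia replicate 1, 2 or 4 (limma-trend adjusted p = 0.103 to 0.127).

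Of 11 inhibitors other than Smad7, 5 were called, 3 higher and 2 lower. Skil, a corepressor that TGF-beta induces, rose from 25.8 ± 4.21 to 41.7 ± 4.49 CPM (SD, n = 4 each), a log2 change of 0.70 (SE 0.12, limma-trend adjusted p = 0.000835), whereas its relative Ski had a log2 change of -0.39 (SE 0.055, limma-trend adjusted p = 0.000326). Bambi, a pseudoreceptor, had -0.37 and Pmepa1, another induced inhibitor, had 0.35 (limma-trend adjusted p = 0.0372 and 0.0338). The call of Bambi was lost without hypoxia replicate 2, 3 or 4 or normoxia replicate 1 or 3 (adjusted p = 0.0556 to 0.113), and that of Pmepa1 without these or normoxia replicate 2 (adjusted p = 0.0604 to 0.101).

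Of 28 further targets, 8 were higher and 6 lower in normoxia. Ccn2, the matricellular protein CTGF, had 546, 338, 333 and 257 CPM in hypoxia and 824, 794, 709 and 612 CPM in normoxia, a log2 change of 1.04 (SE 0.18, limma-trend adjusted p = 0.00106). The groups did not overlap, and hypoxia replicate 1 was the hypoxia sample nearest to normoxia. That replicate was also the nearest to normoxia for members of both directions, Tgfb2, Tgfb3, Ltbp1, Tgfbi and Smad7 as well as Tgfb1, Ltbp3 and Ltbp4. Hmga2 and Angptl4 each rose by a log2 change of 0.82 (limma-trend adjusted p = 0.00155 and 8.36e-05). Other targets moved the other way. Those called lower were Tnc, Col1a1, Cthrc1, Acta2, Snai2 and Tagln, and they were named after their values were seen. The log2 change of Col1a1, the main collagen gene of bone, was -0.74 (limma-trend adjusted p = 0.00383), and that of Acta2, smooth muscle actin, was -0.49 (limma-trend adjusted p = 0.00295). Over the whole target list the median log2 change was 0.14.

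The related activin genes were tested as a neighbouring branch that uses the same Smad2 and Smad3. Of 10 tested, 5 were called, all higher in normoxia. With the replicate block 6 were called, 5 higher and 1 lower. The correction for GC content and length gave 5 calls, 4 higher and 1 lower. Over all tested genes 46.0% and 29.5% were called in these 2 fits. Inhba, the activin A subunit, had 280, 187, 145 and 130 CPM in hypoxia and 556, 391, 387 and 347 CPM in normoxia. The log2 change was 1.22 (SE 0.21, limma-trend adjusted p = 0.000939), the largest rise in the 7 lists. Acvr1b, the type I activin receptor, rose by 0.53 (SE 0.11, adjusted p = 0.00321). Fstl1 and Fst, of the same list, rose by 0.41 and 0.33 (limma-trend adjusted p = 0.00306 and 0.0374). For Fst the call was lost with the correction for GC content and length (adjusted p = 0.259) and without hypoxia replicates 1, 3 and 4 (adjusted p = 0.0741, 0.0984 and 0.0834) and normoxia replicates 2 and 4 (adjusted p = 0.126 and 0.0705). Of the 26 pathway genes chosen by the rule for largest change, 18 were called under all 23 other settings and none changed sign, and the 8 that lost the call under some setting were Eng, Itgb8, Fn1, Trim33, Zfyve9, Bambi, Pmepa1 and Fst.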

How the data were processed

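RNA-seq of 8 samples, 4 cultured at 2% O2 and 4 at 21% O2, was analysed from 1 table of raw counts per gene. The authors prepared libraries from total RNA, sequenced single-end reads, mapped them to mm10 and counted them over Ensembl genes (zUMIs with STAR, samtools and featureCounts), and deposited whole-number counts that are not normalized. The handling of strand, introns and multi-mapped reads is not given in the sources used here. Symbols, positions, exon lengths and transcript GC content came from GENCODE M21 on GRCm38, which named 53360 of the 53465 identifiers, and promoter windows came from RefSeq on GRCm38.p6.

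As in the study, low genes were removed by filterByExpr (edgeR 4.0.16, minimum count 5). The 14369 genes kept held 99.9% of all counts. TMM factors were used, as no normalization is named there. Log2 CPM with a prior count of 3 was compared by limma-trend (limma 3.58.1, R 4.3.3) with Benjamini-Hochberg adjustment over all tested genes at 0.05, and each log2 change is the normoxia mean less the hypoxia mean, which the prior count draws slightly towards 0. Alternatives were the edgeR quasi-likelihood test, DESeq2 1.42.0, limma-voom, other scalings, filters and prior counts, the replicate block, a correction for GC content and length (natural splines with 5 degrees of freedom each), and leaving out samples or pairs. The code was tested on simulated data. At 12898291 to 25132141 counts per sample, 3 counts correspond to 0.119 to 0.233 CPM, which covers counting error only.

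The study divided a sorted population between the oxygen levels, but the sample titles do not say that equal numbers share such a population. In these data same-numbered samples deviated together from their group means (correlations across genes of 0.47, 0.28, 0.25 and 0.17), so the numbers were taken as pairs. Samples of a group differed by more than sampling noise (chi-square per degree of freedom of 3.70 or more), and the study describes them as biologically independent. The 9 genes and all lists were chosen with earlier results of these data known. Named genes are the 9, up to 4 called genes of largest absolute change in each list, and the 2 genes whose log2 CPM correlates best with that of each called member among genes with a mean log2 CPM of at least 3. Other genes were named after their values were seen. Results for some genes that this rule or the annotation brings in are not reported here.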

Additional observations from a re-analysis of the deposited data

Results flagged for a closer look

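Among the 26 sets of 4 samples searched for a value far from the rest, 2 held one, where chance gives about 1 in 20 groups, or 1.3 of these 26. Hypoxia replicate 1 had 25132141 counts against 12929564 to 13219647 in the other hypoxia samples, a gap of 0.976 of the range of the group. The summed level of Tgfb1, Tgfb2 and Tgfb3 per kb of exons was 69.7 CPM per kb in normoxia replicate 4 and 79.8 to 81.7 CPM per kb in the other normoxia samples, a gap of 0.845 of the range. In that sample Tgfb3 had 50.2 CPM per kb against at least 59.8 CPM per kb in the other normoxia samples, while Tgfb2 had the highest value of the group, 12.4 CPM per kb.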

How the results depend on the processing

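Tgfb1, Ltbp3 and Ltbp4 were called lower in normoxia under all 23 alternatives, with adjusted p-values of at most 0.0437, 0.000763 and 0.0470. The number of members called was 6, ranged from 4 to 8 over the alternatives that kept all samples, and from 3 to 8 when single samples were left out. The log2 change of Ltbp2, which was not called, lay between -0.054 and 0.070 when single samples were left out. It turned to -0.0048 with DESeq2, to -0.0014 with RLE normalization, to -0.028 without pair 4 under the replicate block and below 0 without hypoxia replicate 3 or 4 or normoxia replicate 1 or 2 (-0.011, -0.053, -0.054 and -0.0054). Tgfb3 lost its call with RLE normalization (adjusted p = 0.0518), and it and Tgfb2 did with no filter (0.0677 and 0.0524), besides the cases given above. Without pair 3 or 4, with the block, Tgfb2 lost it too (0.0720 and 0.0561). With total counts only, Ltbp1 and Smad7 were called higher (0.0416 and 0.0197), but this scaling moved the median of all genes to 0.089 and the split of all calls from 2592 higher and 2378 lower to 3611 and 1575. The replicate block called Ltbp1 and Smad7 and changed no other member's call. With it 57 of the 82 other pathway genes were called against 45 without it, where 46.0% and 34.6% of all tested genes were. The number of other pathway genes called was between 34 and 58 over the alternatives, and that of all genes between 3840 and 6610. The causes were not tested. Precision was limited by 4 samples a group, and the fewest counts were those of Tgfb1 and Ltbp4, at 377 to 954 per sample.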

Other observations

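For each called member, the genes whose log2 CPM followed it most closely over the 8 samples were sought among 9394 genes. Tgfb1 was nearest to Tmub2 and Cotl1 (Pearson's r of 0.995 and 0.991), Tgfb2 to G3bp2 and Clcn3 (0.969 and 0.963), and Tgfb3 to Map6 and Ankrd1 (0.989 and 0.988). Of these, Ankrd1 had a log2 change of 1.16 between hypoxia and normoxia. Ltbp3 was nearest to Tcf7l2 and Clip3 (0.996 each), Ltbp4 to Ebf3 and Tbc1d5 (0.986 and 0.985), and Tgfbi to Slc20a1 and Erlin1 (0.975 and 0.974). The coefficients describe 8 samples that share the oxygen groups and the pairs, and they are the highest of many.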
